A study of Mus musculus with 10 samples.

Results

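A set of 10 chemokine genes was examined in mouse skeletal muscle, namely Ccl2, Ccl6, Ccl7, Ccl8, Ccl9, Ccl11, Cxcl1, Cxcl9, Cxcl12 and Cxcl14, out of 37947 genes listed by mRNA sequencing of the gastrocnemius, the large muscle of the calf. The genes were given by name, and for each the transcript of highest mean level across the libraries was used. Of the 10 members, 9 had a value in at least 1 library, as did 12532 of all genes, and 8 had a mean of at least 1 FPKM, as did 10159 of all genes. FPKM is a number of fragments scaled to the length of the transcript and the size of the library, and all levels below are log2 of FPKM. Levels under 1 FPKM were listed as 0, and a listed 0 therefore does not show that a transcript was absent.

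The study asked how gene expression in muscle changes with age. Muscle of 5 young mice (6 months) was compared with muscle of 5 aged mice (24 months), with 1 library for each mouse. All mice were C57BL/6, carried no named allele and received no named treatment, and the methods state that they were male. Whole muscle was used, so RNA of fibers, vessels, connective tissue and resident or blood leukocytes was read together, and fewer cells of a type and less RNA per cell cannot be told apart. The 6 muscle fiber markers, among them Tnnt3 and Mylpf of the contractile apparatus, were listed in all 10 libraries with a summed level of 87440.1 to 122040.3 FPKM. The depth of the libraries was 19886361 to 34554354 reads. Number 3 of each age was read most deeply but had the fewest transcripts above 0, 35024 in young and 29878 in aged muscle, against 38855 to 43296 in the other 8 libraries.

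Chemokines are small secreted proteins that bind G protein-coupled receptors on leukocytes and other cells and guide their movement along a gradient. The Ccl and Cxcl families are named for the spacing of their first cysteines. Some members, such as Cxcl12 and Cxcl14, are made steadily by cells of healthy tissues, whereas others, such as Ccl2, Ccl7 and Cxcl9, are induced in inflammation. In injured muscle, ligands of Ccr2 draw monocytes from the blood, which become macrophages in the tissue.

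Of the members, 6 lie in clusters on chromosome 11 (GRCm38.p6, RefSeq positions). Ccl2 (chr11:82035577-82037452), Ccl7 (chr11:82045712-82047525), Ccl11 (chr11:82057832-82062955) and Ccl8 (chr11:82115185-82116799) span 81.2 kb, with Ccl12 between Ccl11 and Ccl8. Ccl9 (chr11:83572917-83578636) and Ccl6 (chr11:83587886-83593087) span 20.2 kb. Cxcl1 (chr5:90891245-90893121) and Cxcl9 (chr5:92321331-92328079) lie on chromosome 5, Cxcl12 (chr6:117168535-117181368) on chromosome 6 and Cxcl14 (chr13:56288643-56296811) on chromosome 13.

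Promoter windows of 300 bases, 250 before the start site and 50 from it on, were matched by symbol to RefSeq sequences (GRCm38.p6) for 7 of the 10 members. The window of Cxcl14 lies wholly inside the gene position given above, so its start site is not the 5′ end of that position. The windows of Ccl8 and Cxcl9 are shown because both genes were listed in aged muscle alone, and that of Cxcl14 because it had the highest level of the members. Each sequence is written 5′ to 3′ on the strand of its gene, with the matches to the motifs searched in capitals.
Ccl8 (chr11:82114935-82115234, + strand): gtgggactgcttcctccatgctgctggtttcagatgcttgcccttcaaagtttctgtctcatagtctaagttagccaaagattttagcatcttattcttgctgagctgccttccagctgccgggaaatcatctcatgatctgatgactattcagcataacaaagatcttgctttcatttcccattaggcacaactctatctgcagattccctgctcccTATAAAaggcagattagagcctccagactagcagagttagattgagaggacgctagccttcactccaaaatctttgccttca
Cxcl9 (chr5:92328030-92328329, - strand): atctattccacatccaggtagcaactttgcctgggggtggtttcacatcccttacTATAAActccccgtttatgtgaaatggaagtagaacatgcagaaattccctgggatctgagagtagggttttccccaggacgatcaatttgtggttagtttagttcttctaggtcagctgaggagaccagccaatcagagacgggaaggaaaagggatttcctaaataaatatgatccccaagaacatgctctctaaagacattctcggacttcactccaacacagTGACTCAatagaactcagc
Cxcl14 (chr13:56296502-56296801, - strand): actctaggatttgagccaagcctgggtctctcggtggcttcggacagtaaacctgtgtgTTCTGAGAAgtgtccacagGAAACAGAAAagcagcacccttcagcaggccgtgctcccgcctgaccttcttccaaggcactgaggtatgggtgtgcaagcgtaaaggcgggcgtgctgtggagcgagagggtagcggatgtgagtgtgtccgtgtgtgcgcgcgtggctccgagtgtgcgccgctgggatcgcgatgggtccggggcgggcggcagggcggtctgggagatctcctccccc

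The capitals of Ccl8 are a TATA box (TATAAA) that began 32 bases before the start site. Cxcl9 held TATAAA 195 bases before the start site and an AP-1 site (TGACTCA) within the first transcribed bases. Cxcl14 held a STAT element of the letters TTCNNNGAA 191 bases before the start site of its window. An interferon-stimulated response element lay 172 bases before that site. Both of these matches lie inside the gene position given for Cxcl14 above, not before it. Both strands were searched for these motifs, for AP-1 as TGANTCA, and for the NF-kB consensus, which matched in the windows of Cxcl1 and Ccl9. Of all 32851 mouse promoter windows of this length, 13.6% held TATAAA, 7.81% the AP-1 letters, 8.3% the STAT letters, 3.44% the interferon-stimulated response element and 8.46% the NF-kB consensus, and TATAAA and the AP-1 letters each also matched in Ccl9. No letters of the 5 motifs were found in the windows of Ccl6 and Cxcl12. A match describes the letters alone.

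The windows of the neighbors Ccl6 and Ccl9 shared a stretch across their start sites, shown because these were the members of intermediate level listed in every library. Of 67 aligned bases, 58 were identical (86.6%), in capitals below, with 2 gaps.
Ccl6 (chr11:83593073-83593146, - strand): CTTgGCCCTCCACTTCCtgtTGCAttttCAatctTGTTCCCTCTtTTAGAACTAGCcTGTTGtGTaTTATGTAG
Ccl9 (chr11:83578588-83578654, - strand): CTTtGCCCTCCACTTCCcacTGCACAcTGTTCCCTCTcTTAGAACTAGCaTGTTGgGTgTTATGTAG

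Ccl2, Ccl7, Ccl8 and Cxcl9 were listed at 0 in all 5 young libraries and above 0 in at least 2 aged libraries, which is 4 of the 9 members with a value, against 3.22% of the 12532 genes. The reverse, a 0 in every aged and a value in at least 2 young libraries, was found for 0 members, against 0.327% of the genes. Ccl6, Ccl9, Ccl11, Cxcl12 and Cxcl14 were listed in every library of both ages, and Cxcl1 in none, unlike Ccl2, Ccl7, Ccl8 and Cxcl9. These 4 genes count among the 9 members with a value through aged libraries alone, so their share is not evidence of a difference either way. Ccl2, Ccl7 and Ccl8 also reached a mean of 1 FPKM through the aged group alone. Their place among the 8 members tested by limma is therefore not evidence of a difference.

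**Figure D1:**
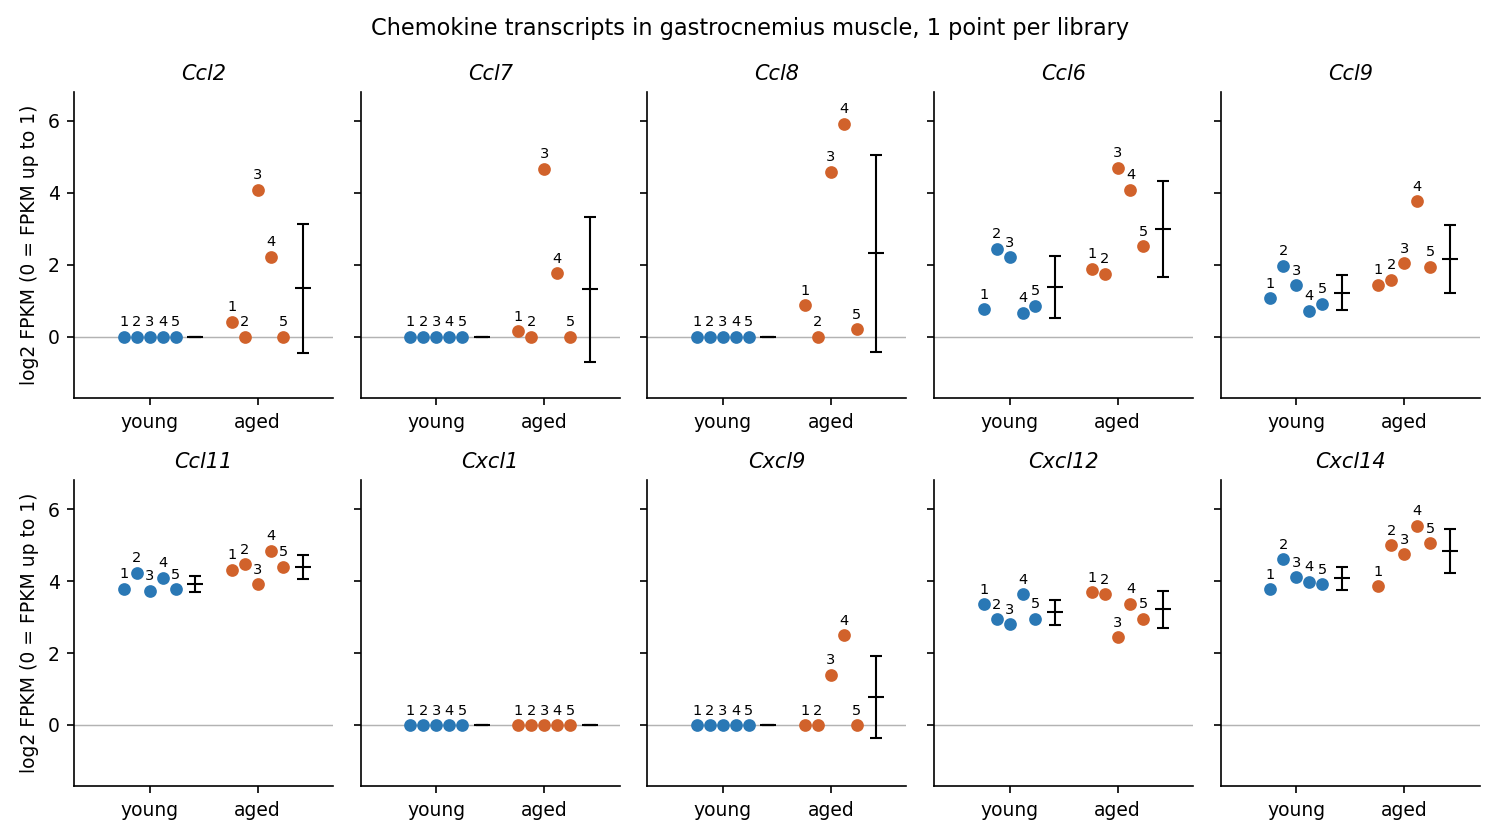
Log2 FPKM (y axis, 0 standing for up to 1 FPKM) of the 10 chemokines in young and aged muscle (x axis). Each numbered point is 1 library, and the bar beside the points is the mean with its SD (n = 5). Libraries 3 and 4 of the aged group lie above the others for Ccl2, Ccl7, Ccl8, Ccl6, Ccl9 and Cxcl9, whereas Cxcl12 and Ccl11 stay within a narrow range.

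Ccl2 is the main ligand of Ccr2 and attracts monocytes. Its level was 0 in every young library and 0.41, 0, 4.09, 2.23 and 0 in aged libraries 1 to 5, which stand for 23, 439 and 101 reads in aged libraries 1, 3 and 4. The highest library stood far above the others, and 2 aged libraries were at 0 like the young, so the groups overlapped. An FPKM of 1 on this transcript of 813 bases corresponds to 16.2 to 28.1 reads, below which nothing was listed. The difference of means was 1.35 ± 0.71 on the log2 scale (limma standard error, n = 5 per group), with a two-sided exact permutation p of 0.167. It was 0.66 without aged library 3, and 1.68 without aged library 2 or 5, where the exact permutation p was 0.0476 and the unadjusted limma p was under 0.05. No fold change is given, since the young libraries were all listed at 0. The other transcript, Ccl2-002, was listed only in aged library 3, at 3.50, and aged library 4, at 1.63. Its difference was 1.03 (exact permutation p = 0.444).

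Ccl7, another Ccr2 ligand encoded next to Ccl2, had the same libraries above 0. It was at 0 in all young libraries and at 0.16, 0, 4.67, 1.76 and 0 in aged libraries 1 to 5, or 19, 648 and 72 reads in aged libraries 1, 3 and 4. As for Ccl2, aged library 3 was the highest and aged libraries 2 and 5 overlapped with the young. The difference of means was 1.32 ± 0.80 (limma standard error, n = 5 per group; exact permutation p = 0.167). It was 0.48 without aged library 3, and 1.65 without aged library 2 or 5, where the exact permutation p was 0.0476.

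Ccl8 lies at the far end of the same cluster and in the mouse is a ligand of Ccr8, a receptor of T helper cells. Every young library was at 0, while aged libraries 1 to 5 gave 0.88, 0, 4.59, 5.92 and 0.22, which correspond to 20, 390, 823 and 12 reads in the 4 libraries above 0. Here aged library 4 was the highest, and only aged library 2 overlapped with the young. The difference of means was 2.32 ± 1.08 (limma standard error, n = 5 per group), with an exact permutation p of 0.0476. Paired by number, the aged library was the higher in 4 of 5 pairs, with an exact sign p of 0.125. Leaving out aged library 4 gave a difference of 1.42, and leaving out each library gave exact permutation p values of 0.00794 to 0.206, the highest of them whichever young library was left out.

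Cxcl9, induced by interferon gamma and a ligand of Cxcr3 on activated T cells, was listed in 2 libraries. It was at 1.40 in aged library 3 and at 2.49 in aged library 4, and at 0 in the other 8 libraries. The aged libraries 1, 2 and 5 therefore overlapped with the young. Its mean of 0.825 FPKM was below the limit for limma, and the difference of means of 0.78 had an exact permutation p of 0.444 and was 0.35 without aged library 4. Cxcl1, a neutrophil attractant that binds Cxcr2, was listed at 0 in all 10 libraries.

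Ccl6 and Ccl9 are CC chemokines of rodents that act through Ccr1. Young libraries 1 to 5 gave Ccl6 levels of 0.77, 2.45, 2.21, 0.66 and 0.86, and aged libraries 1 to 5 gave 1.89, 1.75, 4.70, 4.08 and 2.52. Aged libraries 3 and 4 were well above the rest, and aged libraries 1 and 2 lay below young libraries 2 and 3, so the groups overlapped. The mean was 1.39 ± 0.86 in young and 2.99 ± 1.33 in aged muscle (SD, n = 5 each). The difference of 1.60 ± 0.63 (limma standard error, n = 5 per group) had an exact permutation p of 0.0635. It was 1.17 without aged library 3, and it was 1.87 without aged library 1 and 1.91 without aged library 2, where the exact permutation p was 0.0476 in both cases. The other transcripts of Ccl6 differed by 1.47 and 1.04. A long noncoding RNA, E230016K23Rik, spans Ccl6 on the opposite strand, and the methods do not say that strand was used in counting. Its transcripts were listed at 0 in all 10 libraries.

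For Ccl9, young libraries 1 to 5 gave 1.06, 1.98, 1.43, 0.73 and 0.92, and aged libraries 1 to 5 gave 1.44, 1.59, 2.04, 3.77 and 1.95. Aged library 4 stood apart, and the other aged libraries fell between 1.44 and 2.04, within or just above the young range. The difference of means was 0.93 ± 0.43 (limma standard error, n = 5 per group; exact permutation p = 0.0556) and was 0.53 without aged library 4. The exact permutation p was 0.0318 without young library 2, 0.0397 without aged library 1 and 0.0476 without aged library 2. The transcript used has 398 bases. The longer transcript Ccl9-001, of 3006 bases, was listed in young library 2 at 0.02, in aged library 3 at 2.12 and in aged library 4 at 1.50, and its difference was 0.72 (exact permutation p = 0.444).

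Ccl11, or eotaxin, binds Ccr3 and attracts eosinophils. It lies inside the Ccl2 to Ccl8 cluster but, in contrast to these neighbors, was listed in every library. Young libraries 1 to 5 gave 3.79, 4.23, 3.73, 4.09 and 3.78, and aged libraries 1 to 5 gave 4.32, 4.46, 3.91, 4.84 and 4.39. The aged libraries 1, 2, 4 and 5 exceeded the highest young library, and aged library 3 lay within the young range. The mean was 3.92 ± 0.23 in young and 4.39 ± 0.33 in aged muscle (SD, n = 5 each), a difference of 0.46 ± 0.20 (limma standard error, n = 5 per group; exact permutation p = 0.0397). The aged library was the higher of all 5 same-numbered pairs, for which the exact sign p of 0.0625 is the smallest possible. The unpaired exact p was 0.0159 to 0.0794 when each library was left out, above 0.05 without young library 1, 3 or 5 or aged library 2 or 4.

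Cxcl14 is made by epithelia, muscle and other healthy tissues, and its main receptor is not settled. Its levels were 3.77, 4.60, 4.10, 3.98 and 3.92 for young libraries 1 to 5 and 3.85, 4.99, 4.75, 5.54 and 5.05 for aged libraries 1 to 5. The aged libraries 2 to 5 exceeded the highest young library, and aged library 1 was lower than 4 of the young. The mean was 4.07 ± 0.32 in young and 4.84 ± 0.62 in aged muscle (SD, n = 5 each), with a difference of 0.76 ± 0.30 (limma standard error, n = 5 per group; exact permutation p = 0.0476). All 5 pairs were higher in the aged library (exact sign p = 0.0625). The difference was 0.59 without aged library 4 and 1.01 without aged library 1, and the exact p was above 0.05 without any 1 of the libraries other than young library 2 and aged library 1.

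Cxcl12 binds Cxcr4 and the scavenging receptor Ackr3 and retains stem and progenitor cells in their niches. Its levels were 3.36, 2.94, 2.79, 3.63 and 2.95 for young libraries 1 to 5 and 3.68, 3.63, 2.44, 3.37 and 2.95 for aged libraries 1 to 5. The lowest and the highest value of all 10 libraries were both in aged muscle. The mean was 3.13 ± 0.35 in young and 3.21 ± 0.52 in aged muscle (SD, n = 5 each), and the difference of 0.08 ± 0.27 (limma standard error, n = 5 per group) had an exact permutation p of 0.770. The sign of this difference turned to negative without young library 3, aged library 1 or aged library 2. Its 4 transcripts differed by 0.08, 0.13, 0.13 and 0.08. The transcript used and Cxcl12-004 had nearly the same number of reads, 393 and 397 in young library 1, whereas Cxcl12-002 and Cxcl12-003 had 587 and 761.

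**Figure D2:**
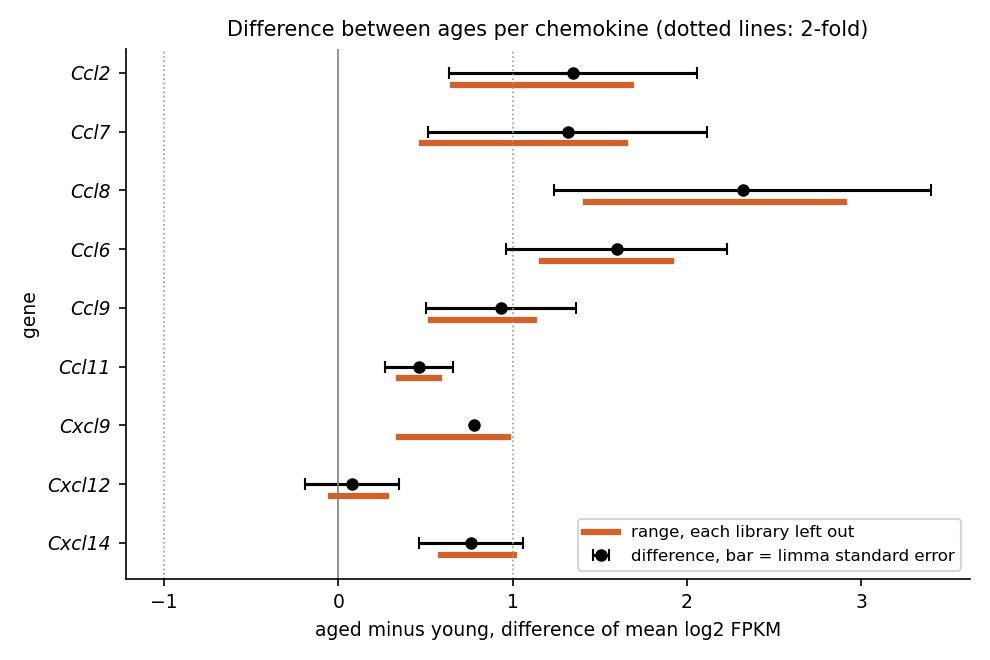
Difference of mean log2 FPKM between aged and young muscle (x axis) for the 9 chemokines with a value (y axis). Black points are the differences, black bars the limma standard errors (none for Cxcl9, which limma did not test), and orange bars the range when each library is left out in turn. Cxcl12 lies at 0.08 with a range that spans 0, and Ccl8 has the largest difference, 2.32, with a range of 1.42 to 2.90.

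By the 2-fold criteria of the study for mRNA, a difference over 1 on the log2 scale and an unadjusted p under 0.05 in a 2-sample equal-variance test, 0 of the 9 members were higher and 0 were lower in aged muscle, against 0.846% and 0.0559% of the 12532 genes. Ccl2, Ccl6, Ccl7 and Ccl8 exceeded the 2-fold limit but not the p limit. Ccl6 passed these criteria without young library 2, aged library 1 or aged library 2, Ccl8 without aged library 2, and Cxcl14 without aged library 1. In limma, 0 of the 8 members tested had a Benjamini-Hochberg adjusted p under 0.05 over all 38059 transcripts, against 0.00984% of the 10159 genes, and the adjusted p was 0.9999 for each of the 8 members.

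At an unadjusted limma p under 0.05, 3 of 8 members were higher in aged muscle, namely Ccl6, Ccl11 and Cxcl14, against 6.04% of the 10159 genes, and 0 were lower, against 0.876%. With libraries of the same number as a replicate block, 4 members were higher, Ccl8 being added. The count was 0 without young library 1, young library 5 or aged library 4, and 1 without young library 4. The ages did not overlap for 0 of 9 members with the aged libraries higher, against 1.78% of the genes, and for 0 with the aged lower, against 0.287%. Leaving out 1 library left a gap between the ages for Ccl9 (without young library 2), Cxcl14 (without aged library 1), Ccl8 (without aged library 2) or Ccl11 (without aged library 3).

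The order of levels was compared within libraries, since FPKM is scaled to length. In young muscle it was Cxcl14, Ccl11, Cxcl12, Ccl6 and Ccl9. Cxcl14 was above Ccl11 in 3 of 5 young libraries, with a mean difference of 0.15 ± 0.22 (SD), and Ccl6 above Ccl9 in 2 of 5, with 0.17 ± 0.45 (SD), so neither pair of neighbors differed beyond its spread. Ccl11 was above Cxcl12, and Cxcl12 above Ccl6, in all 5 young libraries. In aged muscle the order was Cxcl14, Ccl11, Cxcl12, Ccl6, Ccl8, Ccl9, Ccl2, Ccl7 and Cxcl9. Only Ccl11 and Cxcl12 were neighbors ordered the same way in all 5 aged libraries, with a mean difference of 1.17 ± 0.40 (SD).

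The highest values of most members came from the same libraries. Aged libraries 3 and 4 were the 2 highest of all 10 for 6 of the 9 members, Ccl2, Ccl6, Ccl7, Ccl8, Ccl9 and Cxcl9, against 3.83% of the genes, a count made after these values were seen. Library 3 was the higher for Ccl2, Ccl6 and Ccl7, and library 4 for Ccl8, Ccl9 and Cxcl9. Ccl2, Ccl7, Ccl8 and Cxcl9 counted among the 9 members through aged libraries alone. Aged library 3 had the fewest transcripts above 0 of all 10 libraries, 29878, and whether this bears on its levels was not tested. The levels of the 10 members added up to 40.3 to 60.1 FPKM in young libraries and to 57.9, 72.6, 147, 190 and 72.7 FPKM in aged libraries 1 to 5. The sums of aged libraries 3 and 4 were the highest, and aged library 1 lay within the young range.

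The summed level of macrophage or monocyte markers was also highest in these libraries. All 10 of the list had a value, with a sum of 14.9 to 38.8 FPKM in young and 27.7 to 125 FPKM in aged libraries, the highest being 86.0 and 125 in aged libraries 3 and 4. Of these, 2 passed the 2-fold criteria upward, Cd68 with a difference of 1.41 and Lyz2, encoding lysozyme, with 1.22, although their limma adjusted p values were 0.735 and 0.988. C1qa of the complement system differed by 1.35. Of the 10, 6 had aged libraries 3 and 4 as the highest, against 3.83% of the genes. Lyz2, Cd163, Adgre1 (listed as Emr1) and Itgam did not. Lyz2 was at 5.37 in aged library 5 and 4.80 in aged library 3. Cd163 was at 0 in aged library 3, and Adgre1 and Itgam were listed in aged library 4 only. The red blood cell markers Hbb-b1 and Hba-a1, with Alas2, summed to 89.8 to 205 FPKM in young libraries and to 103 to 409 FPKM in aged libraries, with 332 and 409 in aged libraries 3 and 4, and 0 of the 3 passed the 2-fold criteria. The part of macrophages and blood in the chemokine levels was not tested.

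**Figure D3:**
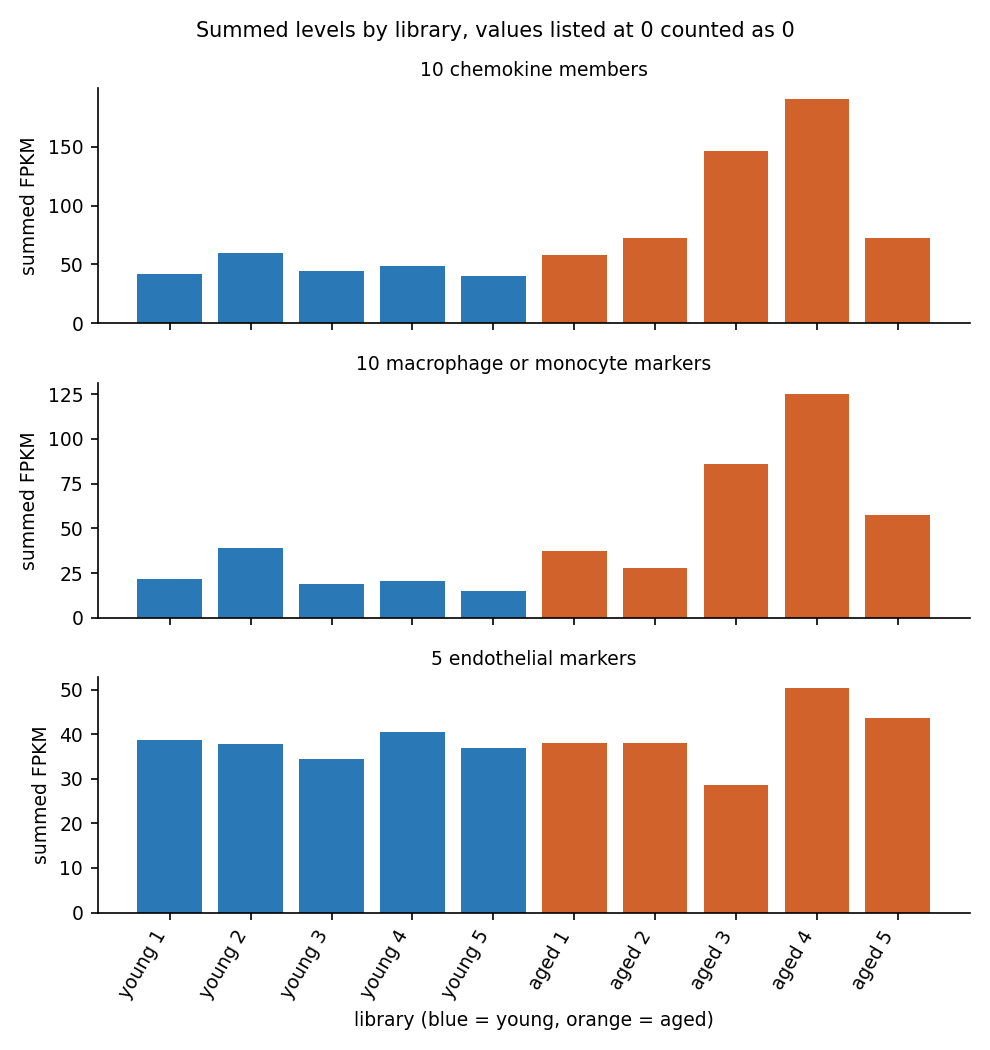
Summed FPKM (y axis) of the 10 chemokines, 10 macrophage or monocyte markers and 5 endothelial markers in each library (x axis, blue young, orange aged), with values listed at 0 counted as 0. Aged libraries 3 and 4 hold the highest bars for the chemokines (147 and 190) and the macrophage markers (86.0 and 125). The endothelial bar is the lowest in aged library 3 (28.7) and the highest in aged library 4 (50.3).

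Markers of neutrophils, eosinophils and T cells were mostly listed at 0, whereas all 6 B and plasma cell markers had a value and are described at the end. Of 6 neutrophil markers, Ly6g, Mpo, Ngp and Cxcr2 were at 0 in all libraries, and S100a8 and S100a9 gave sums of 3.21 and 1.35 FPKM in aged libraries 3 and 4 and 0 elsewhere. All 4 eosinophil markers, including the Ccl11 receptor Ccr3, were at 0 in every library. Of 5 T cell markers, Cd3g was at 0.48 in aged library 3 and Cd3e, Cd3d, Cd4 and Cd8a were at 0 throughout. The 5 endothelial markers, led by Pecam1 and Cdh5, summed to 34.5 to 40.5 FPKM in young and 28.7 to 50.3 FPKM in aged libraries, and 0 of them passed the 2-fold criteria.

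Receptors of the members were mostly below the limit of listing. Of 23 chemokine receptors, 15 were at 0 in all libraries, among them Ccr1, Ccr3, Ccr8, Cxcr2 and Cxcr3, which bind Ccl6 and Ccl9, Ccl11, Ccl8, Cxcl1 and Cxcl9 in that order. Ccr2, the receptor of Ccl2 and Ccl7, was listed in aged library 3 at 0.88 and in aged library 4 at 0.45 only. Cxcr4, the signaling receptor of Cxcl12, had a value in 6 libraries, with a mean of 0.15 ± 0.24 in young and 0.39 ± 0.42 in aged muscle (SD, n = 5 each). Ackr3, which removes Cxcl12, was listed in all libraries at 2.15 ± 0.11 in young and 2.27 ± 0.20 in aged muscle (SD, n = 5 each; exact permutation p = 0.222). The differences of Ccrl2 and Ackr1 were 0.42 and 0.58, and 0 of the 3 receptors tested by limma had an unadjusted p under 0.05.

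Of 30 other chemokine genes, 28 were in the data and 14 had a value. None of them passed the 2-fold criteria, and by limma 1 of 9 tested was higher (Cxcl10) and 1 lower (Ccl25) in aged muscle at an unadjusted p under 0.05, with 0 at the adjusted level. The highest were Ccl27a with a difference of 0.30, Pf4, a platelet chemokine, with 0.62, Ccl25 with -0.66 and Ccl21b with -0.07. Ccl21b is nearly identical to Ccl21a, so their reads may have been divided. At 0 in all young and above 0 in at least 2 aged libraries were Ccl5, Ccl12, Ccl19, Cxcl13 and Cxcl16, and 4 of the 14 had aged libraries 3 and 4 as the highest. Ccl12, encoded between Ccl11 and Ccl8 and a Ccr2 ligand, was at 3.28 in aged library 3 and 1.33 in aged library 4 and at 0 in the rest, the same 2 libraries in which Cxcl9 was listed. Ccl12 and Cxcl10 were named after their values were seen.

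**Figure D4:**
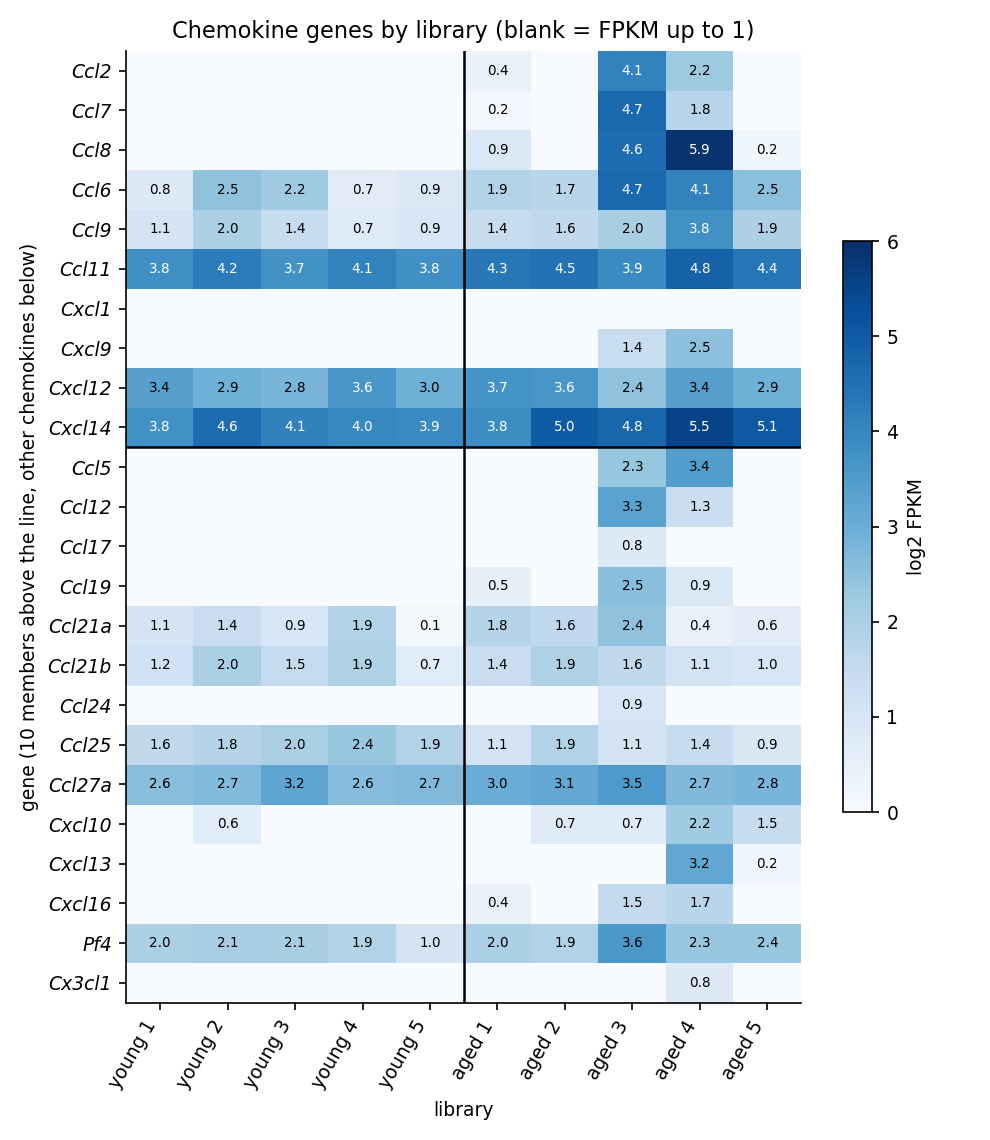
Log2 FPKM (color and printed value, blank for up to 1 FPKM) of the 10 chemokine members, above the line, and of the 14 other chemokines with a value, below it (y axis), in each library (x axis). Ccl2, Ccl7, Ccl8 and Cxcl9 are blank in all 5 young libraries, and the columns of aged libraries 3 and 4 are the fullest.

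Signaling components downstream of the receptors and inducers of chemokine genes were examined as lists chosen with earlier results of these data known. Of 18 signaling genes, 13 had a value, and 1 passed the 2-fold criteria, Rgs2, a regulator that shortens G protein signals. Rgs2 was at 0.26 ± 0.34 in young and 1.91 ± 0.76 in aged muscle (SD, n = 5 each; exact permutation p = 0.00794, the smallest possible; limma adjusted p = 0.468). The small GTPase Rac1 and the G protein subunits Gnb2 and Gnai2 differed by -0.04, 0.30 and 0.19, the receptor kinase Grk2, listed as Adrbk1, by -0.14. Of 16 inducers, the cytokines Tnf, Il1a, Il1b, Il6, Ifng, Il4, Il13, Osm and Il17a were at 0 in all libraries. The transcription factors Cebpb, Rela, Nfkb1 and Stat6 differed by 0.72, 0.38, -0.0016 and 0.34, with 0 of the 7 listed inducers past the 2-fold criteria.

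For the 3 members with the largest spread among those listed in at least 8 libraries, the genes of most similar pattern were taken by the root mean square distance of mean-centered log2 values over the 10 libraries, among 9836 genes. Ccl6 was nearest to C1qb (0.32), C1qa (0.33) and C1qc (0.37). Ccl9 was nearest to Hcls1 (0.34), Sbno2 (0.38) and Cmklr1 (0.40), and Cxcl14 to Xirp1 (0.27), Adm (0.29) and Sbno2 (0.31). These distances describe the 10 libraries, which share their depth and composition across genes.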

How the data were processed

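Poly-A RNA of 5 young and 5 aged gastrocnemius muscles was sequenced in paired ends. The authors mapped the reads to mm10 with TopHat2, computed FPKM, and deposited log2 FPKM values for each transcript, unpooled, with an FPKM under 1 listed as 0. The program that counted reads is not given in the sources used here. The methods name a RefSeq gene model, while the values carry Ensembl and Vega transcript names. Groups and numbers came from the labels, and no column was left unused. The members and gene lists were chosen with earlier results of these data known.

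Library depths and read numbers were recovered as the values at which transcripts of annotated length gave whole reads. Within 0.01 of a read, 70.1% to 71.9% of the transcripts with a single annotated form came out whole, and these numbers serve only to describe precision. The length of Cxcl14 was found from the same steps.

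limma 3.58.1 (R 4.3.3, default settings, Benjamini-Hochberg) was fitted to the 38059 transcripts whose mean FPKM reached 1. For single members, all labellings of 5 against 5 libraries were enumerated in an exact permutation test (two-sided, smallest p 0.00794). The p-values measure the spread between single muscles of separate mice. The 2-fold criteria and limma were run on simulated data, whereas the exact permutation test was not. The deviations of same-numbered young and aged libraries from their group means correlated at 0.131, 0.332, 0.695, 0.390 and 0.208, and a paired comparison was therefore run beside the unpaired one. Named besides the members were the genes of each list past the 2-fold criteria and those of highest mean (4 for chemokine lists, 2 for markers), and the 3 genes nearest to each of 3 members. Some genes of the lists are not reported here. Alternatives were log2 of FPKM plus 1, a pseudocount of 0.1, no filter on the mean, median-of-ratios scaling, quantile normalization, the mean over the transcripts of a gene, limma with a trend, the replicate block, and libraries left out. Scripts ran in Python 3.11.15 (scipy 1.17.1, pandas 2.3.3, numpy 2.4.6).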

Additional observations from a re-analysis of the deposited data

Results flagged for a closer look

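The level of Ccl9 in aged library 4, 3.77 on the log2 scale, stood far from the other 4 aged libraries. Its gap to the nearest of them was 0.744 of the range of the group, above the critical value of Dixon's test for 5 values. Chance flags about 1 in 20 groups, and 14 sets of 5 values were tested. The same library was also the highest of all 10 for Ccl8, Ccl11, Cxcl9 and Cxcl14.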

How the results depend on the processing

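The number of members past the 2-fold criteria in aged muscle was 0 as reported, 1 (Ccl8) on the scale of log2 FPKM plus 1, and 0 to 2 when each library was left out. The number with an unadjusted limma p under 0.05 ranged from 0 to 4 when each library was left out. The number of members without overlap between the ages was 0 as reported, 1 (Ccl11) under quantile normalization, 1 (Ccl11) with both libraries numbered 3 left out, and 0 to 1 when each library was left out. Under quantile normalization the exact permutation p was 0.0635 for Cxcl14, 0.0476 for Ccl8 and 0.00794 for Ccl11. With both libraries numbered 3 left out, it was 0.114 for Cxcl14, 0.143 for Ccl8 and 0.0286 for Ccl11. The difference of Cxcl12 reversed, to -0.007 without young library 3, -0.0391 without aged library 1 and -0.0252 without aged library 2, within a range of -0.0391 to 0.271 when each library was left out. The causes were not tested. Leaving out each library, an alternative chosen after seeing the data for the count of members listed at 0 in every young and above 0 in at least 2 aged libraries, gave 3 or 4 such members against 4 as reported. With the replicate block, the differences were the same, 4 members had an unadjusted limma p under 0.05, the exact p of Ccl8, Ccl11 and Cxcl14 became 0.125, 0.0625 and 0.0625, where 5 pairs allow no exact p below 0.0625, and no other call changed. An FPKM up to 1 was not listed, so differences below that level, including those of Cxcl1, were not detectable.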

Other observations

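Of 6 B and plasma cell markers, all had a value and 1 passed the 2-fold criteria upward. The immunoglobulin light chain gene Igkc had levels of 0, 0, 0, 1.29 and 0.12 for young libraries 1 to 5 and 6.78, 3.15, 4.25, 4.71 and 3.20 for aged libraries 1 to 5, with no overlap between the ages. The difference was 4.14 ± 0.63 (limma standard error, n = 5 per group; limma adjusted p = 0.180; exact permutation p = 0.00794, the smallest possible). Jchain, which joins secreted antibodies and is listed as Igj, was at 2.48 in aged library 1 and at 0 elsewhere. The B cell markers Cd79a, Cd79b and Ms4a1 were listed in aged library 4 only, at 1.67, 2.11 and 1.99, and were named after their values were seen. The B cell chemoattractant Cxcl13 was at 3.17 in the same library, at 0.24 in aged library 5 and at 0 in the other 8.

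Of 6 fibroblast markers, 1 passed the 2-fold criteria downward. Col3a1, a fibrillar collagen, was at 3.59 ± 0.34 in young and 2.56 ± 0.83 in aged muscle (SD, n = 5 each; limma adjusted p = 0.9999; exact permutation p = 0.0317). Dcn and Ly6a, the highest of the list, had differences of 0.10 and 0.67.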
